A study of Mus musculus with 12 samples.

Results

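The regions described are active promoters of the mouse forelimb bud that carried acetylated histone H3 lysine 27 (H3K27ac) without β-catenin nearby and were still acetylated after WNT signalling had been blocked. They were chosen by measured values, namely the deposited H3K27ac and β-catenin peak lists. A region of the DMSO consensus list on chromosomes 1 to 19 and X was kept if it was shorter than 2000 bp and had a summit less than 1 kb from an annotated start site. It also had to overlap a region of the C59 consensus list and to have no β-catenin consensus summit of DMSO buds within 1 kb. Of 19957 H3K27ac regions, 12869 had a summit near a start site, 12715 of those were short enough, 11990 overlapped a C59 region and 9937 (49.8%, 95% Wilson interval 49.1 to 50.5%) lacked β-catenin. These 9937 regions are called members.

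Embryos were wild type (Swiss Albino) in both groups. Pregnant mice received either C59, an inhibitor of the acyltransferase Porcupine, or the vehicle DMSO at E10.5, and forelimb buds were dissected 6 h later and pooled. ChIP-seq for H3K27ac and for β-catenin was done with 2 replicates per antibody and treatment. Forelimb buds hold mesenchyme, ectoderm, vessels, blood and incoming muscle precursors, so every value is an average over these cells. From the peak lists, the H3K27ac libraries held 5.03 and 5.39 Gb of fragments (DMSO) and 5.93 and 5.56 Gb (C59), and the β-catenin libraries 2.93 to 3.42 Gb. At the strongest summit of a member the median was 66 to 78 fragments per H3K27ac library, a counting error of 11.3 to 12.3%, and the 5th percentile was 17 to 20 fragments.

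H3K27ac is written by the acetyltransferases p300 and CBP on nucleosomes beside active promoters and enhancers. Most housekeeping promoters lie in CpG islands, where a nucleosome-depleted start site is flanked by acetylated nucleosomes, and factors such as NRF1, ETS proteins, YY1, NF-Y and CREB bind short sequences within them. β-catenin has no DNA-binding domain of its own. It reaches chromatin through TCF/LEF factors after a WNT ligand, made secretable by Porcupine and carried by Wntless, has bound a Frizzled receptor.

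The sequences of 7 member promoters are shown from 170 bases before to 30 bases from the start site (RefSeq GRCm38.p6, 5′ to 3′ along the gene). The opening 6 are those with the highest fold enrichment that hold a single copy of a motif and stand for the promoter types below. Capitals mark an ETS site in Sucla2 (a succinyl-CoA synthetase subunit), an NRF1 site in N6amt1 (a methyltransferase), a YY1 site in Nfyc (a subunit of NF-Y) and a CCAAT box in Gm20422. They mark a cyclic AMP response element (CRE) in Trp53inp2 (an autophagy protein) and the TCTCGCGA element in Puf60 (a splicing factor). Porcn, which encodes Porcupine, is shown with every match to any of the 13 motifs searched in capitals.
Sucla2 (chr14:73525149-73525348, plus strand): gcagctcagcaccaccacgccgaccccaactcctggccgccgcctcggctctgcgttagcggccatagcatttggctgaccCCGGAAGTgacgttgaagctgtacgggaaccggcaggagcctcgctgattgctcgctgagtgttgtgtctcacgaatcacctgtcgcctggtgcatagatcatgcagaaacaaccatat
N6amt1 (chr16:87354075-87354274, plus strand): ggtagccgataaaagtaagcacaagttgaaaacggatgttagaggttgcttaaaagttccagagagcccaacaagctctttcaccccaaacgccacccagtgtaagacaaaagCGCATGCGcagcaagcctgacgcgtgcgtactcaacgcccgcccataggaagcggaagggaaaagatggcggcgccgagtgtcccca
Nfyc (chr4:120825655-120825854, minus strand): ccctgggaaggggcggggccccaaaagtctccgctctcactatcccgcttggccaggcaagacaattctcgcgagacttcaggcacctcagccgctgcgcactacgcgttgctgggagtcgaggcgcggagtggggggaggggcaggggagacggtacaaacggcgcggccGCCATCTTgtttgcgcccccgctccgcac
Gm20422 (chr8:69774857-69775056, minus strand): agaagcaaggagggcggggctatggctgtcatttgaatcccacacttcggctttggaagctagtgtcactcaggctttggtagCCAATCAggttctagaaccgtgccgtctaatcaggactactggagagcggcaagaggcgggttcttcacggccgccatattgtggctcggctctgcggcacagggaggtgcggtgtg
Trp53inp2 (chr2:155381670-155381869, plus strand): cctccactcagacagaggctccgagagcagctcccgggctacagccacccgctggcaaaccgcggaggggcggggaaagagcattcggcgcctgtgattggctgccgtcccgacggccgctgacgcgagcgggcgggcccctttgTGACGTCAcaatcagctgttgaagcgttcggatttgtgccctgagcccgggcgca
Puf60 (chr15:76080883-76081082, minus strand): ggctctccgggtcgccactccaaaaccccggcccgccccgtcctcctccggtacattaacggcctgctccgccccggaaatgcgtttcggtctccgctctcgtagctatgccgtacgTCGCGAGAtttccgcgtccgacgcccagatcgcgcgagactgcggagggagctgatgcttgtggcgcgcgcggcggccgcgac
Porcn (chrX:8206472-8206671, minus strand): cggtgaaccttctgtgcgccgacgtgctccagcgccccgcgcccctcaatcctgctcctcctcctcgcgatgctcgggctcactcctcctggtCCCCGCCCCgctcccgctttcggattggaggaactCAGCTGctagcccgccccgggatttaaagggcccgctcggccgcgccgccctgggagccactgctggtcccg
The capitals start 89 bases upstream of the start site in Sucla2, 57 in N6amt1, 87 in Gm20422, 25 in Trp53inp2 and 53 in Puf60, and 1 base downstream of it in Nfyc. In Porcn they are a GC box at 77 and the E-box CAGCTG at 42 bases upstream. The fold enrichment of H3K27ac was 30.4 at Sucla2, 31.5 at N6amt1, 29.2 at Nfyc and 4.44 at Porcn.

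Members had a median fold enrichment of 10.52 in the consensus list, which is the fragment coverage at the strongest summit over the coverage that macs2 expected locally. The middle 50% of members lay between 7.13 and 13.9, and the range was 1.82 to 33.0. Their median width was 838 bp, their median GC content 61.5%, and 77.2% (76.4 to 78.1%) had a CpG observed-to-expected ratio above 0.6. The nearest β-catenin consensus summit lay a median of 72922 bp away. It was within 5 kb for 381 members (3.83%) and more than 100 kb away for 3919 (39.4%). Values at the limits of the rule were as follows. Srp19 (a signal recognition particle subunit) was 1003 bp from a β-catenin summit and inside, with a fold enrichment of 18.8, while Lamb2 (a laminin chain), at 977 bp and 5.01, was outside. Atp2b1 (a calcium pump) was 1988 bp wide with 11.3, and Irx3 (a limb homeobox gene) was just too wide at 2006 bp with 5.11. Sp4 lay 994 bp from a start site with 3.32, and Snx8 lay 1001 bp away with 5.30.

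The 5 members with the highest fold enrichment lay at housekeeping or zinc finger genes. Gm20422, a locus on chromosome 8 that shares the region with Zfp866 (chr8:69774445-69775000), had fold enrichments of 30.3 and 33.4 in the DMSO libraries and 34.4 and 31.8 after C59. Fancl, the ubiquitin ligase of the Fanconi anaemia pathway (chr11:26386912-26387539), had 31.7 and 29.7 in DMSO and 31.6 and 28.5 after C59. At Mrps5, a mitochondrial ribosomal protein gene beside Zfp661 (chr2:127587106-127587782), the values were 30.8, 30.7, 32.7 and 31.6 in the same order. As deposited, the treatments overlapped at Gm20422 and Fancl, and at Mrps5 both C59 values lay above both DMSO values. Lrr1, a subunit of a cullin ligase (chr12:69168410-69168947), had 31.0, 29.6, 30.9 and 30.8. N6amt1 (chr16:87354037-87354567) had 29.2, 31.1, 32.7 and 30.6. As deposited, the treatments overlapped at Lrr1 and at N6amt1. After centring, N6amt1 and Mrps5 were higher after C59 without overlap on both the fold enrichment and the coverage scale, and Gm20422 on the former.

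Protein-coding start sites accounted for 9445 members (95.05%), long non-coding RNA genes for 337, pseudogenes for 62 and small RNA genes for 48. Non-coding members were weaker, with a median fold enrichment of 6.88 at long non-coding and 6.89 at small RNA genes, against 10.7 at protein-coding genes. A single summit was found in 5359 members (53.9%), 2 in 3462 and 3 or more in 1116. At members with start sites on 1 strand, the strongest summit lay downstream of the start site in 6244 of 8119 (76.9%). The same share was 76.8% and 76.9% in the DMSO replicates and 76.5% and 76.3% in the C59 replicates, so the orientation was alike in all 4 libraries. Of all 12371 summits at such members, 42.3% lay 50 to 250 bp downstream, 14.7% lay 150 to 350 bp upstream, and 4.96% lay within 50 bp of the start site. Where a member had 2 summits, they were a median of 401 bp apart and stood on either side of the start site in 1548 of 2617 members (59.2%).

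**Figure D1:**
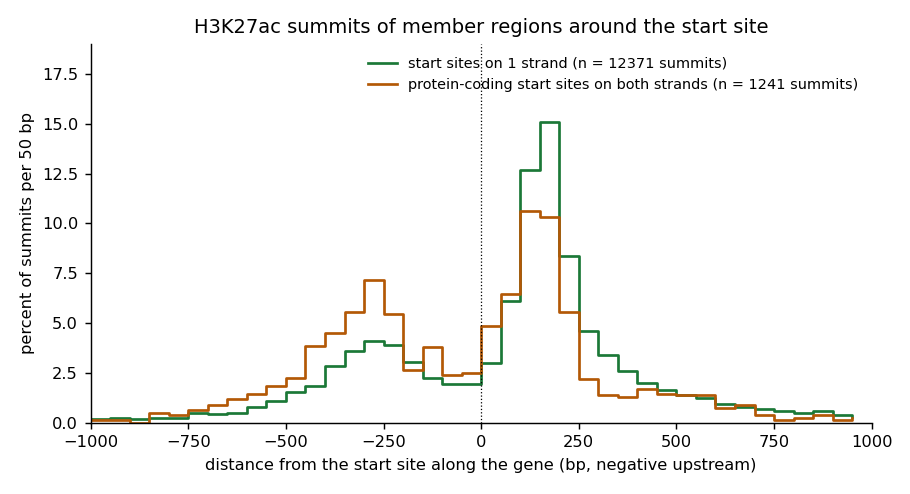
H3K27ac consensus summits of members by distance from the nearest protein-coding start site (horizontal, bp along the gene) as percent of summits per 50 bp (vertical), for start sites on 1 strand (green) and for protein-coding start sites on both strands (brown). Both curves have a high mode at 100 to 200 bp downstream, a lower mode 250 to 300 bp upstream and a dip at the start site, and the upstream mode is higher where genes start on both strands.

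Of 21670 protein-coding genes, 9060 (41.8%) had their start site in a member, 1612 in an H3K27ac promoter with β-catenin and 10416 in no H3K27ac region. Since the rule set these classes, the following shares are a description. Genes of basic cell functions were mostly members. All 8 subunits of the chaperonin TRiC, which folds actin and tubulin, were members, as were 36 of 38 genes of replication licensing and the fork, and 71 of 77 mitochondrial ribosomal protein genes. Among cytoplasmic ribosomal protein genes 71 of 84 were members, among complex I genes 37 of 43, among Mediator subunits 28 of 33, among proteasome subunits 31 of 39 and among splicing factors 43 of 56. Zfp zinc finger genes were members in 254 of 391 cases (65.0%, 60.1 to 69.5%). Members were few in most lists of other cell types. None of 1092 olfactory receptor genes was a member, nor any of 17 genes of the limb ectoderm and apical ridge. Muscle precursors had 3 of 10 (Eya1, Met and Lbx1), and the interval of 10.8 to 60.3% holds the 41.8% of all genes. Endothelial cells had 1 of 12 (Erg), blood cells 1 of 12 (Tal1) and neural cells 1 of 12. Another 3 blood genes and 2 ectoderm and ridge genes had a promoter region without β-catenin in the DMSO list alone. The required overlap with a C59 region left these out. Tbx5, the forelimb selector gene, was a member, Tbx4, its hindlimb relative, was a weak one with 11 to 17 fragments per library, and the hindlimb gene Pitx1 had no H3K27ac region.

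**Figure D2:**
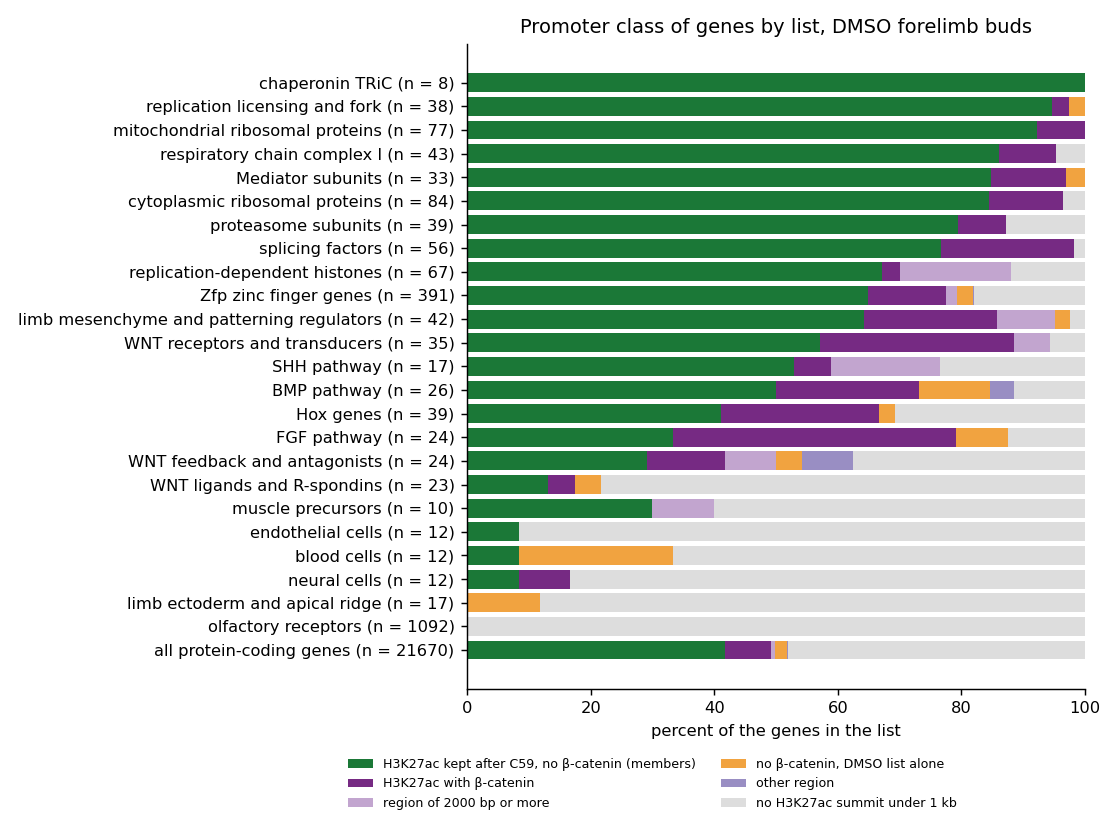
Percent of the genes of each list (horizontal) whose start site lay in each class of H3K27ac region, with the number of genes in brackets. Members (green) make up all 8 TRiC genes and 92.2% of mitochondrial ribosomal protein genes, 64.3% of limb regulators, 13.04% of WNT ligands and R-spondins, and 41.8% of all protein-coding genes.

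The fold enrichment compares a summit with its own surroundings, so a promoter with a high local expected coverage can get a low value although it holds many fragments. The coverage at each summit and the expected coverage were therefore solved from the deposited fold enrichment and p and divided by the genome background, a scale chosen after the data were seen. On this scale members had a median coverage of 25.8 times background, with a local expected coverage of 2.28 times background. Limb mesenchyme and patterning regulators (27 members) had a low median fold enrichment of 5.00, whereas their coverage, at 29.2, was near that of all protein-coding members (28.2). Their expected coverage was 6.04 times background, against 2.29 for all protein-coding members. Replication-dependent histone genes, which lie in clusters, had a fold enrichment of 4.74, a coverage of 57.6 and an expected coverage of 11.5. Cytoplasmic ribosomal protein genes were high on each scale, with 13.2, 70.4 and 5.03. Tbx5 was the clearest case, with a fold enrichment of 2.78, a coverage of 79.8 and an expected coverage of 28.6 times background.

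**Figure D3:**
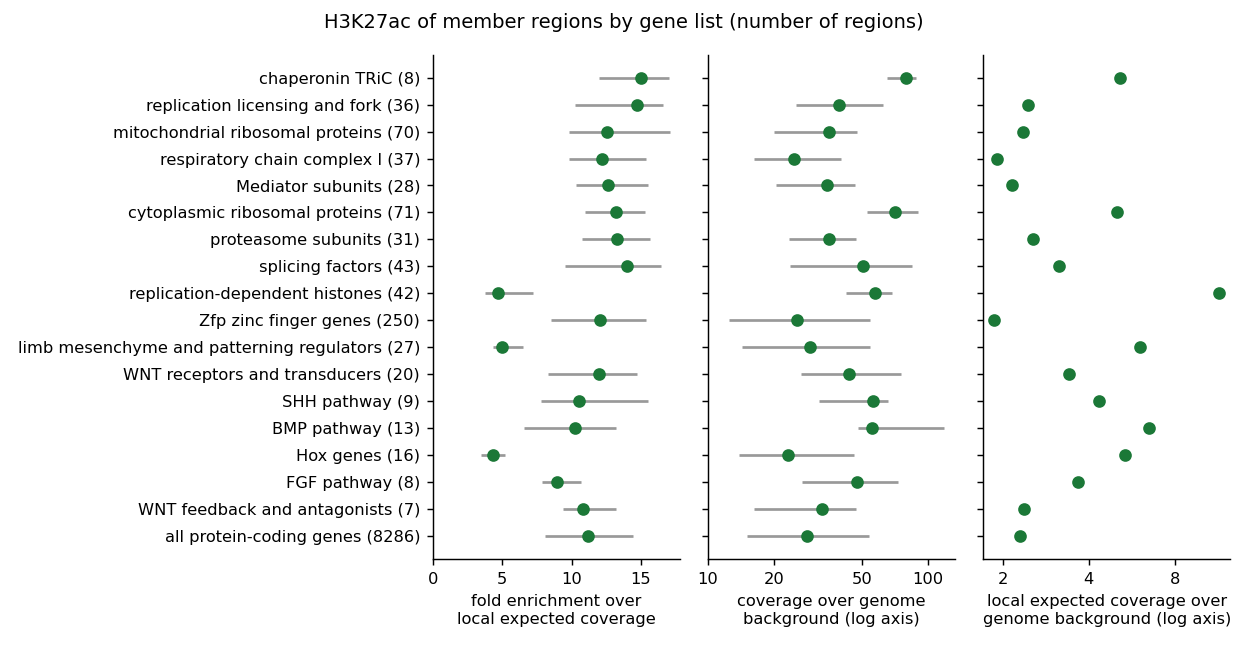
Median consensus fold enrichment (left), coverage over genome background (middle, log axis) and local expected coverage over background (right, log axis) of members by gene list, with lines from the 25th to the 75th percentile in the left and middle panels and the number of regions in brackets. Histone genes, Hox genes and limb regulators have fold enrichments of 4.38 to 5.00, below the 11.2 of all protein-coding members, while their expected coverage of 5.34 to 11.5 times background is above 2.29.

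Members were compared with the 2053 promoter regions of the same kind that had β-catenin and with 3005 distal regions without it. On the log2 scale, the library median of members differed from that of promoters with β-catenin by 0.00 and 0.01 in DMSO and by 0.00 and -0.03 after C59 (mean -0.01, exact sign-flip test over 4 libraries, two-sided p = 0.75). The coverage of members was lower than that of promoters with β-catenin in 4 of 4 libraries, by a mean of 0.73 on the log2 scale (the difference was -0.75 and -0.72 in DMSO, and -0.74 in each C59 library, exact p = 0.13). In the consensus list the medians were 25.8 against 42.8 times background, and the expected coverage was 2.28 against 4.05. Members exceeded distal regions without β-catenin in fold enrichment by 1.02 and 1.06 in DMSO and by 1.03 and 0.99 after C59 (mean 1.02, exact p = 0.13). With 4 libraries, 0.13 is the smallest p the test can give, and the 4 libraries share the same regions. The sets were themselves chosen by H3K27ac calls from these libraries. The comparisons are therefore a description, and their p-values do not serve as support. Distal regions also had a lower CpG content, with a ratio above 0.6 in 10.8% of regions against 77.2% of members and 75.1% of promoters with β-catenin. The strongest summit lay downstream in 77.0% (76.1 to 77.8%) of all members at protein-coding genes and in 70.1% (68.0 to 72.2%) of promoters with β-catenin. Within members, coverage increased with CpG content, from a median of 13.6 in the lowest quintile of the CpG ratio to 43.4 in the highest quintile.

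Genes of the WNT pathway were divided by role. Ligands and R-spondins were rarely members, with 3 of 23 genes. Wnt5b, a ligand of limb cartilage, had fold enrichments of 14.4 and 13.9 in DMSO and 13.7 and 12.1 after C59. Rspo3, a potentiator of WNT receptors, had 4.83, 6.03, 4.86 and 6.33 in the same order, and Rspo4 had 5.70, 4.27, 5.31 and 4.27. At Wnt5b both C59 values lay below both DMSO values, and at the R-spondins the treatments overlapped. Porcn itself, the gene for the protein that C59 inhibits, had 5.15 and 4.89 in DMSO and 5.03 and 5.03 after C59, from 18 to 20 fragments per library. Wls, the gene for the WNT carrier Wntless, had 8.94, 8.46, 9.22 and 6.77. Neither changed in 1 direction in both replicates, and the nearest β-catenin consensus summit lay 681 kb from Porcn and 4.96 kb from Wls.

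Receptors and transducers were members in 20 of 35 cases, with a median fold enrichment of 12.01. Ctnnb1, which encodes β-catenin, had 12.7 and 12.8 in DMSO and 12.95 and 12.95 after C59, with 320 and 374 against 407 and 339 fragments. Axin1, the scaffold of the destruction complex, had the highest value of the list, with 19.6, 18.6, 17.8 and 17.7. Gsk3b, its kinase, had 8.82, 7.24, 8.27 and 8.06. At Axin1 the C59 values lay below the DMSO values as deposited and by coverage, but overlapped them in fold enrichment once libraries were centred. At Ctnnb1 and Gsk3b the differences were 0.05 and 0.06 on the centred log2 scale with overlap, and the coverage of Ctnnb1 was higher without overlap, by 0.09. Frizzled genes among the members were Fzd3, Fzd4, Fzd6 and Fzd8, and the other receptors were Lrp5, Ryk, Ror1 and Ror2. Feedback regulators and antagonists had 7 members of 24 genes, namely Tiam1, Lgr4, Kremen1, Nkd2, Sfrp2, Sfrp1 and Wif1. Their consensus fold enrichment ranged from 5.76 at Wif1, a secreted WNT inhibitor, to 19.8 at Tiam1, a Rac activator.

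The BMP list had 13 members of 26 genes, mostly receptors and Smads, the SHH list 9 of 17 and the FGF list 8 of 24. Smurf2, a ubiquitin ligase for receptors and Smads, was highest among the BMP genes at 17.5. Disp1, which releases the SHH ligand, was highest among the SHH genes at 20.4, and Frs2, an adaptor of FGF receptors, was highest among the FGF genes at 18.5. The ligands Shh, Bmp4, Fgf8 and Fgf4 had no H3K27ac summit under 1 kb from the start site chosen, and Fgf9 was a weak member with 17 to 22 fragments per library. Limb regulators had 27 members of 42 genes. Prrx2, a homeobox gene of limb mesenchyme, was highest at 11.7, followed by Sall4, a zinc finger regulator of limb outgrowth, at 8.97 and Pbx3, a cofactor of Hox proteins, at 8.71. At the lower end, Tbx5 had 2.78, Tbx2, a repressor of the anterior and posterior margins, had 2.48, and Lmx1b, the dorsal selector, had 2.04. Hox genes had 16 members of 39, and the lowest was Hoxd10 at 2.71.

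Promoter windows from 250 bp upstream to 50 bp downstream of 1 start site per protein-coding gene were searched on both strands for the letters of 13 motifs. Of the 9060 member windows, 844 (9.32%, 8.73 to 9.93%) held the ETS letters CCGGAAGT, against 5.03% of all 21670 promoters and 0.931% of the 10416 without an H3K27ac region. The NRF1 letters CGCATGCG were found in 4.35% of members and 2.266% of all promoters, and the YY1 letters AAGATGGC in 6.06% and 3.54%. GC boxes (GGGGCGGGG) were in 22.8% and 14.9%, CCAAT boxes (CCAATCA) in 10.2% and 8.26%, the CRE (TGACGTCA) in 3.63% and 2.39%, and the E-box CACGTG in 10.3% and 7.79%. The TCTCGCGA element was in 2.26% and 1.301%. Letters that were less frequent in members than in all promoters were TATAAA, at 5.50% against 12.1%, the AP-1 letters TGANTCA, at 3.38% against 6.52%, and the homeobox letters TAATTA, at 1.90% against 4.60%. The E-box CAGCTG had shares of 13.9% and 15.5%. ATCAAAG or TTCAAAG, the core bound by TCF/LEF factors, was in 3.94% (3.56 to 4.36%) of members, 7.21% of all promoters and 10.1% of those without an H3K27ac region. Of the 1612 promoters with β-catenin, 7.82% held this core. Their shares of ETS (8.31%), YY1 (5.89%), GC box (24.1%), AP-1 (3.41%) and TAATTA (1.49%) letters were near those of members. Lower than in members were NRF1 (2.61%), CCAAT box (8.002%), TATAAA (3.66%) and CRE (2.54%) letters. Most of the differences between members and all promoters were thus not particular to promoters without β-catenin. Base composition differs between these classes of promoter and its part in the shares was not tested. All intervals cover counting error only.

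The places of the matches differed by motif. In members, ETS letters started a median of 46 bases upstream of the start site and CCAAT boxes 90 bases upstream. YY1 letters most often started 10 to 30 bases downstream of the start site, with 155 of 566 matches, and 103 lay within 10 bases of it. Their median was 7 bases upstream, with quartiles of 115 bases upstream and 15 downstream. Of the YY1 matches 68.9% read AAGATGGC along the gene. Members with YY1 letters had a median fold enrichment of 13.6, against 11.1 for those without. A TATAAA on the gene's strand starting 40 to 21 bases upstream, the place of a functional TATA box, was present in 55 members (0.607%). Promoters with β-catenin had it in 10 cases (0.620%) and those without H3K27ac in 445 (4.27%). Anywhere in the window and on either strand, TATAAA was present in 28 of 45 member promoters of replication-dependent histone genes (62.2%). Next were genes of TFIID subunits, with 4 of 9, beside 5.50% of all members. Histone promoters also held a CCAAT box in 22 of 45 cases (48.9%), while 0 held the ETS, NRF1 or YY1 letters, as was also so for the 16 Hox promoters. Zfp genes had a CCAAT box in 49 of 254 (19.3%) and NRF1 letters in 22 (8.66%). Limb regulators among the members had an ETS match in 1 of 27 and a TCF/LEF match in 0 of 27, beside 9.32% and 3.94% of all members. TCF/LEF letters were in 3 of 16 Hox promoters and 5 of 45 histone promoters. These counts are small, and differences between the lists were not tested.

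**Figure D4:**
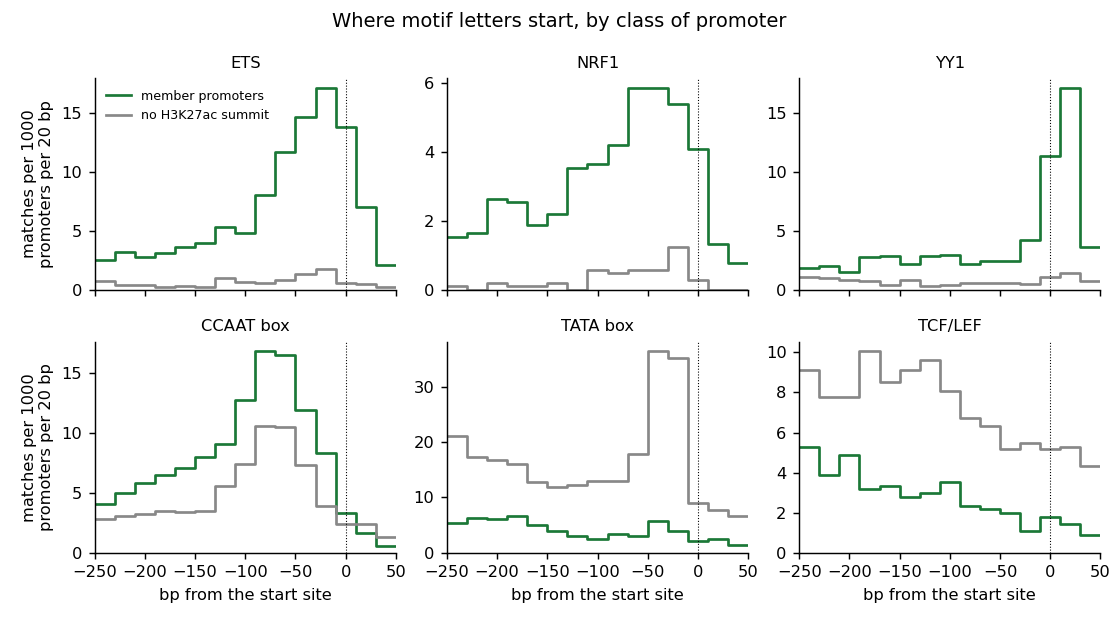
Matches per 1000 promoters per 20 bp (vertical) by their distance from the start site (horizontal, bp along the gene) for 6 motifs, in member promoters (green, n = 9060) and promoters without an H3K27ac region (grey, n = 10416). ETS, NRF1 and CCAAT letters peak upstream of the start site of members, and YY1 letters 10 to 30 bp downstream of it. TATAAA peaks 20 to 50 bp upstream in promoters without H3K27ac, and TCF/LEF letters show no peak in either class.

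The rule excluded members with a β-catenin summit in the consensus list, but it did not use the lists of single replicates, which come from the same libraries. In DMSO replicate 1, 1140 members (11.5%, 10.9 to 12.1%) had a summit within 1 kb, and in replicate 2 there were 2281 (22.95%, 22.1 to 23.8%). In all, 270 members had one in both lists, 870 in replicate 1 alone, 2011 in replicate 2 alone, and 6786 in neither. The C59 lists held 283 and 315 summits in all, against 20148 and 25765 in the DMSO lists, so summits were rare after C59 everywhere. At members the numbers after C59 were 0 in replicate 1, which allows a share of up to 0.0302%, and 2 in replicate 2. No test was made, since the rule used DMSO calls from these libraries. Those 2 members were Cpsf6, an mRNA cleavage factor gene, and the snRNA gene Gm25313. Start sites without an H3K27ac region and without a consensus β-catenin summit had a single-list summit in 0.436% and 1.22% of cases. Distal regions without β-catenin had one in 8.95% and 18.5%.

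The single-list summits were weak, with a median β-catenin fold enrichment of 3.93 in replicate 1 and 3.91 in replicate 2, against 5.00 and 5.08 at promoters with a consensus summit. Listing thresholds differed, because the lowest listed −log10 p was 3.89 and 3.79 in the DMSO lists and 5.69 and 5.76 in the C59 lists. At a −log10 p of at least 5.76, 548 members (5.51%) in DMSO replicate 1 and 1157 (11.6%) in replicate 2 kept a summit, so counts remained above those after C59. Members with a single-list summit had a higher H3K27ac coverage, with a median of 39.0 times background against 21.65 for those in neither list, and were wider (946 against 790 bp). A summit in either list became more frequent with CpG content, from 23.6% in the lowest quintile of the CpG ratio to 38.7% in the highest. Among the named genes, Bambi, Gsk3b, Gli2 and Lmx1b had a summit in both DMSO lists, and Porcn, Ctnnb1, Axin1 and Sox9 had one in neither.

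Members were compared between the treatments as a class, and the rule kept promoters listed under both, so lost promoters are outside this comparison. Since the rule used the H3K27ac calls of both treatments, the values are a description. The p-values below do not show that acetylation was unchanged. Of the 9937 members, 9897 (99.6%) had a value in all 4 H3K27ac libraries. As deposited, the member median of the log2 fold enrichment was 3.29 and 3.33 in DMSO and 3.33 and 3.24 after C59 (exact permutation test, two-sided p = 0.667). The treatments overlapped on this scale. After each library was centred on the median of all regions, the medians were 0.353 and 0.347 in DMSO and 0.348 and 0.349 after C59 (exact p = 1). Members are 9897 of the 17319 regions that set the centre, so centring by itself holds their median near 1 value. By centred log2 coverage both C59 medians (0.403 and 0.401) lay below both DMSO medians (0.408 and 0.459), with a difference of -0.03 (exact p = 0.333, the smallest that 2 against 2 libraries allow). The differences of single members had a median of 0.01 on this scale. Across members, the Pearson correlation of the log2 fold enrichment was 0.946 between DMSO replicates, 0.948 between C59 replicates and 0.928 to 0.936 between treatments. Both C59 libraries lay below both DMSO libraries at 1837 members (18.6%), beside 17.3% of all 17319 regions measured in 4 libraries. Both lay above at 2443 members (24.7%), beside 25.6%. On the coverage scale the shares were 23.6% lower beside 22.0% of all regions, and 27.01% higher beside 28.5%. On both scales together 14.5% of members were lower and 18.6% higher, beside 13.4% and 19.6%. The members' shares were near those of all regions. The exact permutation test of a single member cannot go below 0.333, and no test across regions was run. In pooled tissue, a changed share of cells and a changed level of acetylation per cell cannot be told apart.

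Among the lists with at least 2 measured member regions, replication-dependent histone genes had the highest share with more coverage after C59. Of 42 member regions, 34 were higher in both C59 libraries and 1 was lower, beside 28.5% higher and 22.0% lower of all regions, with a median difference of 0.20 on the centred log2 coverage scale, beside 0.03 over all regions. By fold enrichment 19 were higher and 3 lower, with a median of 0.07, and the direction was the same without centring and with the mean over summits. With each library left out in turn, the coverage median stayed between 0.18 and 0.21. In the chromosome 13 clusters 26 of 32 regions were higher and 0 lower on coverage, and on chromosome 3 the numbers were 7 of 8 and 0. Hist2h2bb, an H2B gene, had fold enrichments of 5.22 and 4.71 in DMSO and 7.59 and 6.80 after C59, with 115 and 110 against 236 and 175 fragments. Hist1h1e, a linker histone gene, had 10.9, 11.5, 11.3 and 10.9, from 260, 283, 380 and 321 fragments. Hist3h2ba on chromosome 11 was lower on both scales, with 7.91, 8.50, 6.68 and 5.52. Regions of a cluster share their surroundings, so they are not independent of each other, and the part of near-identical gene copies was not tested. Next in share were the genes of the V-type proton pump, with 8 of 13 higher and 1 lower by coverage and a median of 0.21. By fold enrichment 4 were higher (30.8%, beside 25.6% of all regions) and 0 lower, with a median of 0.10. With the mean over summits 2 were higher and 1 lower.

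Ribosomal protein genes went opposite ways on the scales. By fold enrichment 32 of 71 were higher and 14 lower, with a median of 0.11, whereas by coverage 21 were higher and 32 lower, with a median of -0.09. Of all regions, 25.6% were higher and 17.3% lower by fold enrichment, and 28.5% and 22.0% by coverage. The share of ribosomal protein genes higher by coverage (29.6%) was thus near that of all regions, and the share lower (45.1%) was above it. With each library left out, the medians ranged from 0.06 to 0.11 and from -0.10 to -0.03. Rpsa, a small-subunit protein gene, illustrates this, with fold enrichments of 19.7, 19.97, 19.8 and 18.9 but 315 and 342 fragments in DMSO and 239 and 194 after C59. Rplp0, a stalk protein gene, was lower on both scales, with 18.1, 17.7, 17.0 and 13.9. Zfp genes were higher more often than lower on each scale, at 88 against 36 of 250 by fold enrichment (median 0.04) and 93 against 37 by coverage (median 0.09). For limb regulators the counts were 5 higher and 4 lower of 27 by fold enrichment (18.5% and 14.8%) and 8 higher and 5 lower by coverage (29.6% and 18.5%), near or below the shares of all regions.

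Single promoters with large differences by fold enrichment held few fragments. The 5 largest declines of the mean centred log2 fold enrichment were at Lrrc3b, Tedc1, Pom121l2, Ppip5k1 and Ralgps1. Lrrc3b, a leucine-rich repeat gene (chr14:15438471-15439088), had 6.78 and 9.74 in DMSO and 3.36 and 4.28 after C59, a difference of -1.08, from 24 and 37 against 13 and 16 fragments. Tedc1, a tubulin complex gene (chr12:113156425-113156947), had 8.70, 9.17, 4.62 and 4.49, a difference of -0.95. Ralgps1, an exchange factor for Ral GTPases (chr2:33370901-33371759), had 12.98, 11.55, 7.43 and 6.04, from 49 and 54 against 30 and 23 fragments. Pom121l2 and Ppip5k1 differed by -0.87 and -0.85. All 5 were chosen among members without overlap in centred fold enrichment. Their treatments did not overlap by coverage either, which was solved from the same summits.

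The largest gains by fold enrichment were at Zbtb37, Gm22317, Hacd4, Slc16a9 and Lhfpl2. Hacd4, an enzyme of fatty acid elongation (chr4:88438626-88438934), had 2.98 and 4.63 in DMSO and 6.71 and 6.48 after C59, from 10 and 17 against 27 and 25 fragments. The snRNA gene Gm22317 had 4.88, 7.98, 12.7 and 9.81, Slc16a9, a carnitine transporter gene, had 4.07, 4.12, 7.67 and 6.79, and Lhfpl2 had 4.06, 5.40, 7.22 and 8.85. On the coverage scale these 4 differed by 0.96 to 0.99 without overlap. Zbtb37 was different. Its 537 bp region (chr1:161034338-161034874) had fold enrichments of 3.53 and 4.19 in DMSO and 7.96 and 7.86 after C59, but 112 and 141 against 141 and 118 fragments, a coverage difference of 0.03.

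A second member lies beside it. The 1719 bp region (chr1:161035184-161036902) covers start sites of Gas5, a non-coding host gene of small nucleolar RNAs, and of Snord78. Its strongest summit had 226 and 235 fragments in DMSO and 90 and 79 after C59, the largest coverage decline of any member, at -1.46, while its fold enrichment differed by -0.41. The coverage expected at both regions was 31.0 to 33.2 fragments in DMSO and 14.1 to 16.9 after C59. The gain by fold enrichment at the narrow region thus came with a lower expected coverage and not with more fragments.

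Stronger promoters with large differences were found by coverage. Bzw1, a regulator of translation initiation (chr1:58392488-58393886), had 209 and 228 fragments in DMSO and 657 and 566 after C59, and its fold enrichment was 11.02, 10.88, 17.2 and 17.4. This was a difference of 1.47 by coverage and 0.69 by fold enrichment, with no overlap on either scale. Hist1h2al, annotated as a processed pseudogene of H2A (chr13:51202639-51203074), had 40 and 49 against 139 and 112 fragments. Slc19a1, a folate carrier gene (chr10:77032662-77033774), had 100 and 121 against 67 and 38, and Thop1, a peptidase gene (chr10:81069213-81069827), had 43 and 45 against 29 and 12. For the latter pair the coverage difference was -1.13 and -1.25, and both treatments were apart on both scales. The nearest β-catenin consensus summit lay 195 kb from Bzw1 and 27.6 kb from Slc19a1.

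**Figure D5:**
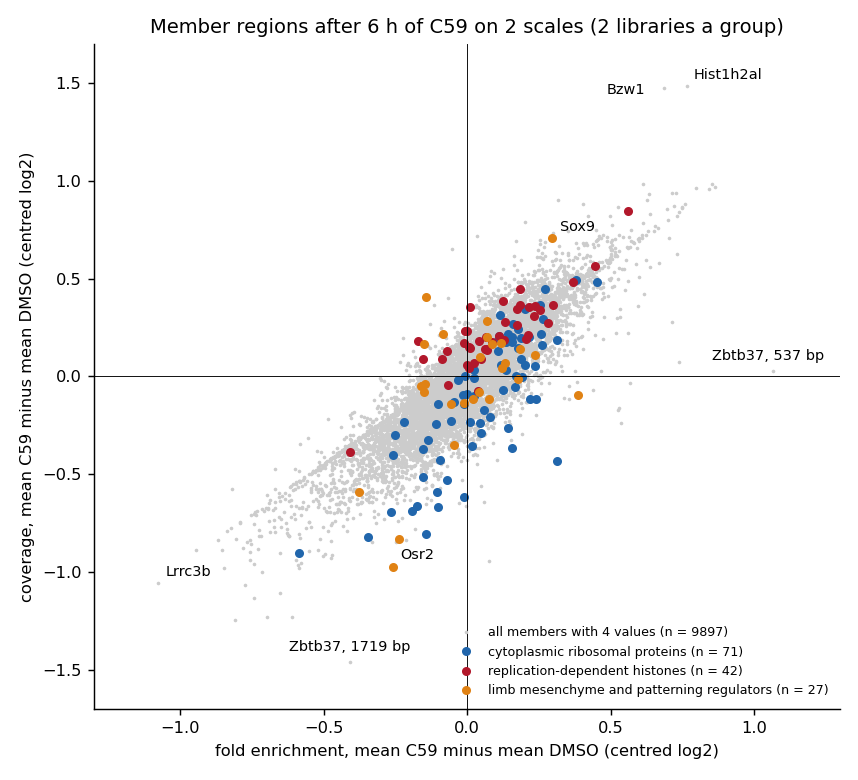
Difference between the mean of 2 C59 and the mean of 2 DMSO libraries for each member with 4 values (n = 9897), by centred log2 fold enrichment (horizontal) and centred log2 coverage (vertical), with histone genes in red, ribosomal protein genes in blue and limb regulators in orange. Histone genes lie mostly above 0 on the vertical axis (34 of 42 without overlap), Bzw1 and Hist1h2al stand at the top, and the 2 Zbtb37 regions lie apart from the diagonal.

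Among limb genes, Sox9, the regulator of cartilage formation (chromosome 11), had fold enrichments of 4.92 and 6.11 in DMSO and 6.72 and 6.52 after C59, with 52 and 68 against 111 and 86 fragments. Both C59 libraries lay above both DMSO libraries on each scale, by 0.30 and 0.71. Osr2, a joint and mesenchyme regulator, lay lower on each scale, with 7.40, 6.41, 6.19 and 5.19 and with 51 and 47 against 30 and 21 fragments (differences of -0.26 and -0.97). Its relative Osr1 had 5.11, 5.68, 4.51 and 3.70, and Tfap2b had 4.75, 4.75, 4.37 and 3.59. Both of these were lower on each scale, by 0.59 and 0.83 in log2 coverage. Hoxa3 was higher on each scale, with 2.76, 3.26, 3.72 and 4.23. Tbx5, Hand2, the posterior regulator, and Prrx2 differed by 0.23, 0.04 and -0.01 in centred fold enrichment, and on coverage by 0.11, 0.10 and -0.13.

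In the BMP list 6 of 13 members were higher and 3 lower by fold enrichment, and 7 were higher and 1 lower by coverage, with medians of 0.07 and 0.11. This was 46.2% higher beside 25.6% of all regions and 23.1% lower beside 17.3% by fold enrichment, and 53.8% beside 28.5% and 7.69% beside 22.0% by coverage. Without 1 library the fold enrichment median ranged from 0.01 to 0.16. With the mean over summits the median was 0.007, with 4 higher and 3 lower, and it ranged from -0.036 to 0.050 without 1 library. The BMP genes named next were all among those higher by fold enrichment. Id1 and Id4, inhibitors of helix-loop-helix factors and BMP targets, were higher on each scale. Id1 had 4.87 and 4.77 in DMSO and 5.61 and 5.45 after C59, with 144 and 145 against 224 and 183 fragments, and Id4 had 5.82, 5.94, 8.22 and 7.09. Bambi, a decoy receptor on chromosome 18, had 9.12, 8.52, 9.74 and 11.3, and the receptor gene Bmpr1a had 10.1, 9.996, 11.6 and 11.2. Msx1, a homeobox target of BMP, was higher by fold enrichment (0.54) but had 60 and 101 against 80 and 55 fragments, a coverage difference of -0.24. In the SHH list, 4 of 9 members were higher and 3 lower by fold enrichment (44.4% and 33.3%). By coverage 2 were higher and 2 lower (22.2% each), and on both scales together the counts were also 2 and 2. Gli1, a transcriptional target of the pathway, was higher on each scale with 3.47, 3.51, 4.03 and 4.32, and the co-receptor gene Cdon with 15.2, 15.7, 18.1 and 17.3. Sufu, a negative regulator, was lower with 7.82, 8.21, 6.87 and 6.95. Of 20 WNT receptors and transducers, 5 were higher and 1 lower by fold enrichment (25% and 5%), and 5 were higher and 4 lower by coverage (25% and 20%), near or below the shares of all regions. The receptors Fzd3 and Fzd6 and the repressor Tcf7l1 were higher on each scale, at 0.15, 0.14 and 0.16 by fold enrichment. Dvl1, a signal transducer, and Kremen1, a co-receptor of Dickkopf, were lower on each scale, at -0.19 and -0.10 by fold enrichment. Dvl2 went opposite ways, at 0.44 by fold enrichment and -0.07 by coverage. Among the markers of muscle, endothelial, blood and neural cells, Eya1, Met, Lbx1 and the neural member overlapped between treatments on each scale. Erg and Tal1 were higher on each scale, with 15 and 15 against 30 and 20 fragments at Erg and 18 and 19 against 28 and 31 at Tal1. Whether the make-up of the pooled buds had a part in any of these differences was not tested.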

How the data were processed

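H3K27ac and β-catenin ChIP-seq peak lists of forelimb buds (2 replicates per antibody and treatment, and 1 consensus list per antibody and treatment) were used, and the 4 input samples have no list used here. The study's methods call the replicates biological, each a pool of forelimb buds. Per the labels and the study's methods, the authors trimmed reads with Cutadapt (4.1 per the labels), mapped them to mm10 with Bowtie2 2.4.5, dropped alignments with a mapping quality below 30, called peaks with macs2 2.2.7.1 without input (genome size 1870000000), and removed duplicates with Picard 2.27.4 for the consensus lists. Consensus calls used both replicates sampled to equal size, with summits kept inside peaks of both. The deposited values are the fold enrichment of each summit (a ratio over the local expected coverage) with its p-value and q-value on a −log10 scale.

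Start sites were those of all transcripts of GENCODE M21 (130588 positions). The members and gene lists were chosen with earlier results of these data known, so shares and counts of lists describe and support nothing by themselves. A region was named for the protein-coding start site nearest its strongest summit. In a replicate, a member's value was the highest summit inside the region. Fold enrichment and p were solved for whole fragments and expected coverage, which succeeded for 100% of summits within a tolerance of 0.01 in −log10 p, and the lowest expected coverage gave background and depth. Treatments were compared by exact permutation over 4 libraries, and as counts of regions whose libraries did not overlap. Named were the 5 members with the highest fold enrichment, the 5 largest differences in each direction among members whose libraries did not overlap, genes of the signalling, limb and other fixed lists, and members at the limits of the rule. The largest coverage differences, Gas5 and single histone, Rpsa and Rplp0 regions were picked after their values were seen. The list of tRNA synthetases was corrected after genes of other families had matched it. Intervals are 95% Wilson intervals, and a count of 0 allows up to 3. Functions were tested on simulated data. Python 3.11.15, numpy 2.4.6, pandas 2.3.3 and pysam 0.24.0 were used. A few items are not reported here.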

Additional observations from a re-analysis of the deposited data

How the results depend on the processing

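With 2 libraries a group the exact permutation test cannot go below 0.333 for any region, and peaks that were not listed are not shown to be absent. The depth limits weak members most. The number of members stayed within 1.5 times of 9937 under 8 of 9 other limits (6786 to 10574) and was 6526 with a width under 1000 bp. The library medians over members differed between C59 and DMSO by 0.00 on the centred log2 scale. This difference was -0.03 as deposited, -0.01 with the mean over summits and -0.03 by coverage. It turned to 0.012 among regions with a fold enrichment of at least 5. Leaving out 1 library gave 0.00 (lowest -0.0045, highest 0.0019), the latter without DMSO replicate 1. The differences of single members had a median of 0.018 centred, -0.0070 as deposited and 0.0040 with the mean over summits. By coverage that median was 0.011, opposite in sign to the difference of library medians. Same-numbered libraries did not deviate together (r = 0.013 over all regions), so no pairing was visible in these values. They cannot tell whether samples of the same number were matched. With a replicate block the difference of library medians was 0.00. In both pairs 2530 members (25.6%) were lower and 3220 (32.5%) higher, beside 24.0% and 33.6% of all regions. Counts of 1837 lower and 2443 higher members became 2048 and 1938 as deposited, so that the balance of directions turned. The difference from promoters with β-catenin turned from -0.01 to 0.066 with the mean over summits, and without 1 library it ranged from -0.013 to 0.0038, above 0 without C59 replicate 2. The excess over distal regions without β-catenin was 0.85 to 1.53 throughout, and 1.01 to 1.03 without 1 library. Members with at least 1 of the 13 motifs made up 65.6%, and 82.3% in the longer window from 500 bp upstream to 100 bp downstream, where all 13 motif shares moved, and 2 of 13 moved with 1 start site per region. The cause of these shifts was not tested, except that a longer window holds more letters by construction. The coverage scale was added after the data were seen.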

Other observations

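Members were less frequent among genes of the X chromosome. Leaving out olfactory receptor genes, 316 of 942 protein-coding genes on X (33.5%) had a start site in a member, against 8744 of 19636 on the autosomes (44.5%). The median coverage of the 364 members on X was 17.4 times background, below the 23.1 to 29.4 of the 19 autosomes, while their median fold enrichment was 9.51 against 9.56 to 11.1. Embryos of both sexes were used in the study, and the part of sex in this difference was not tested.

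Promoters with protein-coding start sites on both strands made up 576 members (5.80%). Their strongest summit lay downstream of the nearest start site in 76.6% (72.9 to 79.8%), beside 76.9% of members with start sites on 1 strand. Where genes point away from each other, a summit on either outer side counts as downstream of the nearer start site. The share at such promoters is thus partly set by taking the nearest start site and does not show a like orientation.

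The 637 promoter regions without β-catenin that were in the DMSO consensus list alone had a median fold enrichment of 4.30 and a coverage of 5.84 times background, below 10.52 and 25.8 for the members, and their CpG ratio was above 0.6 in 46.9%. They are regions near the calling limit, with a median width of 405 bp.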
